A study of Homo sapiens with 2 samples.

Results

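The focal adhesion integrins of carcinoma cells described here are the alpha subunits ITGA1, ITGA2, ITGA3, ITGA5 and ITGAV and the beta subunits ITGB1, ITGB3, ITGB5, ITGB6 and ITGB8. They were taken by gene symbol, with every probe set whose platform annotation gives that symbol and no other. This gave 31 probe sets for 9 of the 10 genes, out of 54613 probe sets and 19775 genes on the array. ITGB6, which with ITGAV forms a receptor of wounded and transformed epithelium, is annotated together with LINC02478 in each of its 4 probe sets and is not described.

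The cells were HSC-3, an established human line of tongue squamous cell carcinoma origin, which carried a red fluorescent protein from lentiviral particles with a non-coding control sequence and had been selected with puromycin. They were seeded at 90000 cells on 6-well plates that were either plain (plastic) or coated with Myogel, a total protein extract of human uterine leiomyoma in which several tumors are combined. Both groups received medium with 10% serum, hydrocortisone (0.4 µg/ml) and ascorbic acid (50 µg/ml), together with penicillin, streptomycin and the antifungal fungizone. RNA was harvested the next day, pooled from 3 wells for each surface, and hybridized to a single Affymetrix U133 Plus 2.0 expression array. The comparison thus rests on 2 arrays and 1 cell line, there are no replicates, and no test or p-value is given. The titles and sources of the samples name the surfaces, while a protocol label gives uncoated plates for both samples.

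Values are the processed intensities of the authors in linear units, with a lowest value of 1 (the floor). The fold change (FC) is the Myogel value over the plastic value, or the brighter over the dimmer value where a direction is named, and a value of 1.5 or more in either direction was used as the threshold. The arrays were not fully level, since the log2 FC had a median of -0.11 over all probe sets, and Myogel had the lower value in 55 of 62 control probe sets. As a measure of the spread between the arrays, each probe set was set beside the range that held 95% of the log2 FCs of the 1000 probe sets nearest to it in signal. Of the 12 listed markers of squamous carcinoma cells, 8 were measured and had values between 1169 and 18856. KRT14 had 18856 on plastic and 18224 on Myogel, and SFN had 16249 and 16390. Summed over the lists, smooth muscle markers (10 of 10 measured) had 961 on plastic and 953 on Myogel, fibroblast markers (8 of 8) 553 and 519, endothelial markers (8 of 8) 473 and 391, and blood markers (8 of 8) 816 and 849. The brightest of these were ACTG2 and SYNPO2 for smooth muscle, FBLN1 and DCN for fibroblasts, PECAM1 and KDR for endothelium, and CD14 and HBB for blood, with values from 63.5 to 302. CNN1 was at the floor on Myogel and CASQ2 at the floor on Myogel and near it on plastic.

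Integrins are receptors of 1 alpha and 1 beta subunit that span the plasma membrane. Outside the cell they bind collagens, laminins, fibronectin or vitronectin, and inside the beta tail binds talin and kindlin, which link the receptor to actin filaments in focal adhesions. ITGB1 pairs with each of the alpha subunits listed here, and ITGAV pairs with each of the beta subunits. In stratified epithelium ITGA2 and ITGA3 are carried by basal keratinocytes, and the fibronectin receptor and several ITGAV receptors are typical of wound edges and carcinoma cells.

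When each gene was represented by its brightest probe set, 0 of the 9 integrin genes passed FC 1.5 in the higher and 0 in the lower direction. Over all genes, 27.3% passed this threshold (9.71% higher and 17.5% lower on Myogel), but among genes with a signal of at least the gene median, 142, only 2.59% did (0.930% higher and 1.66% lower). Of the integrins, 7 lay at or above this signal, and 0 of 7 is near that background. The log2 FCs of the 9 genes ran from -0.21 for ITGB3 to 0.36 for ITGB5, with a median of -0.02 against -0.07 over all genes. The median of the integrins became 0.03 with quantile normalization and 0.04 with loess centring, so that its sign rests on the scaling of the arrays. With FC 1.2 or more, 1 integrin (ITGB5) was higher and 0 were lower, against 49.0% of all genes (18.1% higher and 30.8% lower) and 22.5% of the bright ones (8.93% and 13.5%). In pooled RNA of whole wells, fewer cells that express a gene and less RNA per cell cannot be told apart.

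**Figure D1:**
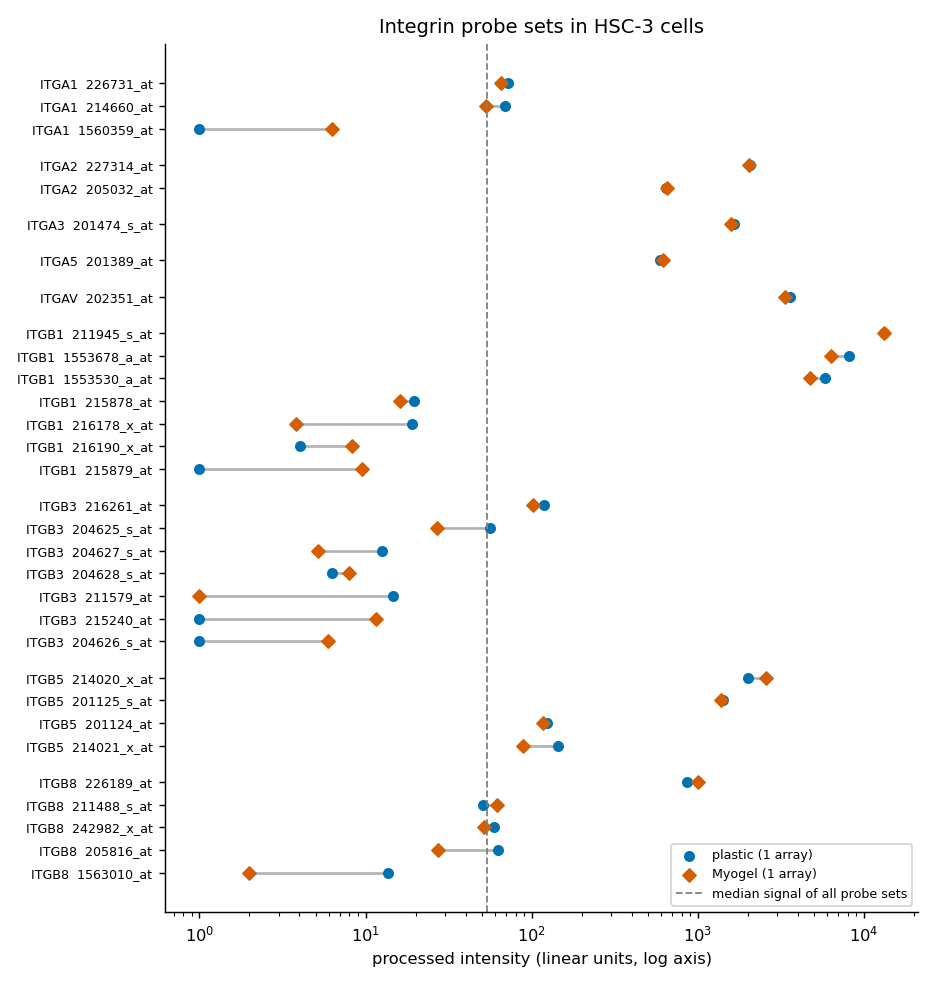
Processed intensity (x axis, linear units on a log scale) of the 31 integrin probe sets (y axis, gene and probe set) on plastic (blue circles) and on Myogel (orange diamonds), 1 array each, with grey lines joining the values of a probe set. The dashed line is the median signal of all probe sets, 53.8. The bright probe sets of ITGA2, ITGA3, ITGA5 and ITGAV have nearly the same value on both surfaces, while the wide gaps lie among dim probe sets, 5 of which are at the floor on 1 array.

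Of the alpha subunits of the collagen receptors, ITGA2 was bright and even on both surfaces. ITGA2, which with ITGB1 forms the main collagen receptor of keratinocytes, had 2059 on plastic and 2034 on Myogel in probe set 227314_at. Its second probe set had 643 on plastic and 649 on Myogel. The log2 FCs were -0.02 and 0.01, which lay 0.03 apart and well inside the ranges for their signal, -0.41 to 0.38 for the brighter one. ITGA1, a collagen receptor subunit better known from smooth muscle and mesenchymal cells, was dim. It had 71.9 on plastic and 65.2 on Myogel in its brightest probe set, and 68.8 and 53.4 in the next. Both were lower on Myogel, with log2 FCs of -0.14 and -0.37, inside ranges that reached from -1.29 to 1.10 and from -1.20 to 1.39, and after quantile normalization the first became 0.03. The remaining ITGA1 probe set was at the floor on plastic and had 6.30 on Myogel, so that no FC is given for it. PELO, which has probe sets of its own, overlaps ITGA1 in the RefSeq table of GRCh38.p14, and whether PELO transcripts add to these values was not tested.

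The alpha subunits ITGA3, ITGA5 and ITGAV were likewise nearly even, with folds of at most 1.06. ITGA3, the laminin receptor subunit of focal adhesions in keratinocytes, was measured by 1 probe set with 1649 on plastic and 1594 on Myogel (log2 FC -0.05, range -0.43 to 0.39). ITGA5, the subunit of the classical fibronectin receptor, was measured by 1 probe set with 590 on plastic and 619 on Myogel (log2 FC 0.07, range -0.56 to 0.63). ITGAV, the common partner of the vitronectin receptors and of the integrins that release TGF-beta from its latent form, had 3571 on plastic and 3359 on Myogel (log2 FC -0.09, range -0.35 to 0.33). ITGA3 and ITGAV were slightly lower and ITGA5 slightly higher on Myogel as deposited. With the median log2 ratio of all probe sets set to 0, each of the 3 was higher, by 0.06, 0.02 and 0.17 on the log2 scale. These 3 genes have no second probe set against which the value could be checked.

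ITGB1, the shared beta subunit of the collagen, laminin and fibronectin receptors, gave values outside the spread of the arrays in some of its bright probe sets and not in the brightest. Probe set 211945_s_at had 13152 on plastic and 13255 on Myogel, a log2 FC of 0.01. Probe set 1553678_a_at had 8095 on plastic and 6302 on Myogel and was thus 1.28-fold lower there. Probe set 1553530_a_at had 5864 on plastic and 4758 on Myogel, 1.23-fold less. The log2 FCs of the pair were -0.36 and -0.30, both below the ranges for their signal, which began at -0.27 and at -0.30. They stayed below these ranges after quantile normalization, with -0.33 and -0.27, and after loess centring, with -0.33 and -0.28. Probe set 1553530_a_at passed its limit by less than 0.01 in each of these 3 settings. The suffix _a_at marks probe sets that match several transcripts of 1 gene, and _s_at those whose probes are shared by several transcripts. Which ITGB1 transcripts each probe set detects was not tested. The 3 probe sets differed by 0.37 on the log2 scale, while the median spread was 0.38 over the 5953 genes for which 2 or more probe sets reached the median signal. Of the 31 integrin probe sets, these 2 were outside their range, and of all probe sets 4.52% were. The other 4 ITGB1 probe sets had values of 19.5 or less on both arrays, and they went in both directions.

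**Figure D2:**
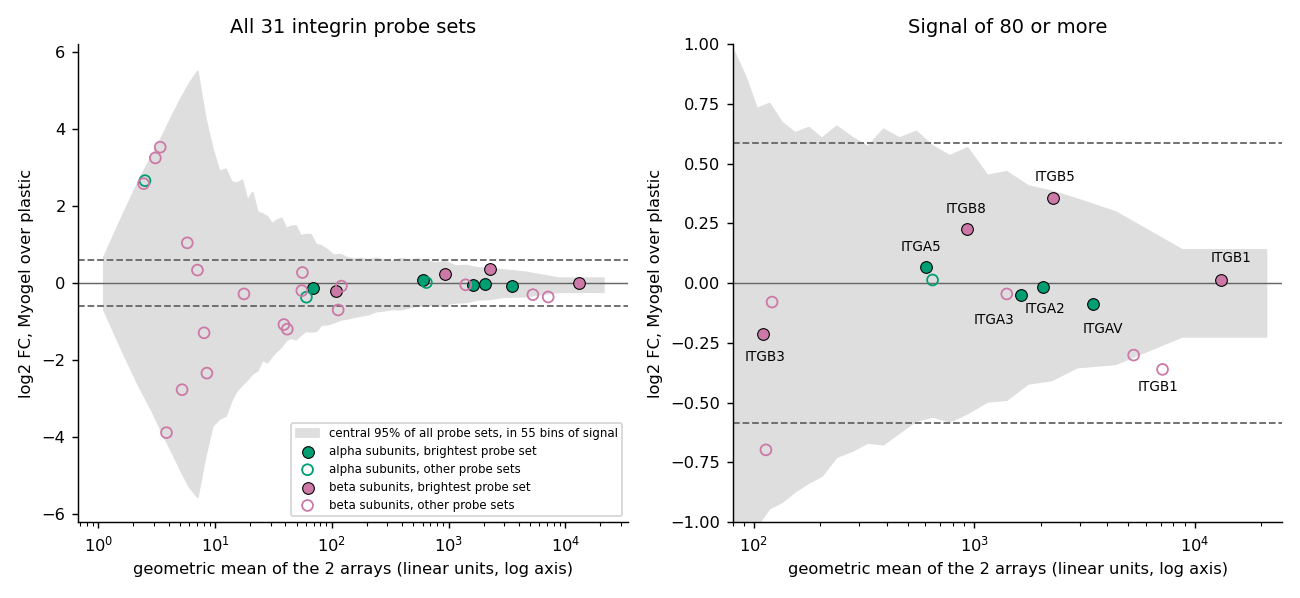
Log2 FC, Myogel over plastic, on the y axis against the geometric mean of the 2 arrays (x axis, linear units on a log scale) for the 31 integrin probe sets (left) and for those with a signal of 80 or more on a narrower y axis (right). Filled points are the brightest probe set of each gene and open points the others, green for alpha and pink for beta subunits, the grey area holds the central 95% of all probe sets in 55 bins of signal, and dashed lines mark FC 1.5. The log2 FCs spread from -3.88 to 3.52 at low signal and narrow with signal. Both extremes are probe sets at the floor on 1 array, and off the floor the dim probe sets ran from -2.77 to 1.04. The 2 open ITGB1 points at -0.36 and -0.30 lie at or beyond the lower edge of the grey area.

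In their brightest probe sets, ITGB5, ITGB8 and ITGB3 had the log2 FCs farthest from 0 among the 9 genes, and their probe sets did not go one way. ITGB5, part of a vitronectin receptor, had 2006 on plastic and 2569 on Myogel in probe set 214020_x_at. This was 1.28-fold higher and had the highest log2 FC of the 9 genes, 0.36, inside the range for its signal, -0.41 to 0.38. Its next probe set had 1426 on plastic and 1381 on Myogel, a log2 FC of -0.05. The probe sets 201124_at and 214021_x_at had 124 on plastic and 118 on Myogel, and 144 and 89.0. The last of these was 1.62-fold lower (log2 FC -0.70, range -0.94 to 0.76) and was the only integrin probe set with FC 1.5 or more whose signal reached the median of 53.8. Probe sets marked _x_at hold probes that may also bind other transcripts, and both ITGB5 values beyond 1.2-fold came from such probe sets. The 4 probe sets spanned 1.06 on the log2 scale, which is wider than in 91.9% of the genes with at least 2 such probe sets. When its _x_at and _s_at probe sets were left out, ITGB5 had a log2 FC of -0.08.

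ITGB8, whose receptor with ITGAV activates latent TGF-beta in epithelium, had 858 on plastic and 1004 on Myogel in its brightest probe set, 226189_at, a 1.17-fold higher value. The log2 FC of 0.23 lay inside the range of -0.54 to 0.57, and quantile normalization and loess centring gave 0.24 and 0.25. Its other probe sets were dim. Near the median signal, probe set 211488_s_at had 51.0 on plastic and 61.6 on Myogel and 242982_x_at had 59.3 and 51.7. The 2 dimmest were lower on Myogel, with 62.9 on plastic and 27.5 on Myogel, and 13.6 and 2.0, inside the ranges for their signal. Since these dim probe sets weigh as much as the bright one in a mean, the mean over the probe sets of ITGB8 was -0.73. ITGB8-AS1 overlaps ITGB8 in the RefSeq table and has a probe set of its own.

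ITGB3, the beta subunit of the vitronectin receptor of endothelium and osteoclasts, had 1 of its 7 probe sets above the median signal of all probe sets. That probe set was below the gene median of 142. It had 118 on plastic and 102 on Myogel, a log2 FC of -0.21 inside a range from -0.94 to 0.76, and -0.08 after quantile normalization. The next had 56.5 on plastic and 26.8 on Myogel. The other 5 had values of 14.7 or less on both arrays, and 3 of them were at the floor on 1 array. The lower values were on Myogel for 4 of the 7 probe sets and on plastic for 3. No detection calls were used, so that a level of ITGB3 above background is not established here.

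Of the 31 probe sets, Myogel had the higher value in 5 and the lower value in 7 with FC 1.5 or more. Together these are 38.7% of the integrin probe sets, which is near the 38.0% of all probe sets (13.8% higher and 24.2% lower). With FC 1.2 or more, 8 were higher and 11 lower, against 60.7% of all probe sets (22.4% higher and 38.3% lower). Below the median signal 11 of 13 integrin probe sets passed FC 1.5, where 64.7% of all probe sets of such signal did (24.2% higher and 40.5% lower). In the brighter part of the array it was 1 of 18, where 11.3% did (3.46% higher and 7.88% lower). Of the 12 probe sets past FC 1.5, 5 were at the floor on 1 array, and 0 of the 12 differed by 100 linear units or more. Among the 8 dim probe sets not at the floor, 1 was higher and 5 were lower. The SD of the log2 FC was 1.28 over these 8 and 0.25 over the 18 brighter ones, and with the floor values taken as measured it was 2.42 over the 13 dim ones.

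**Figure D3:**
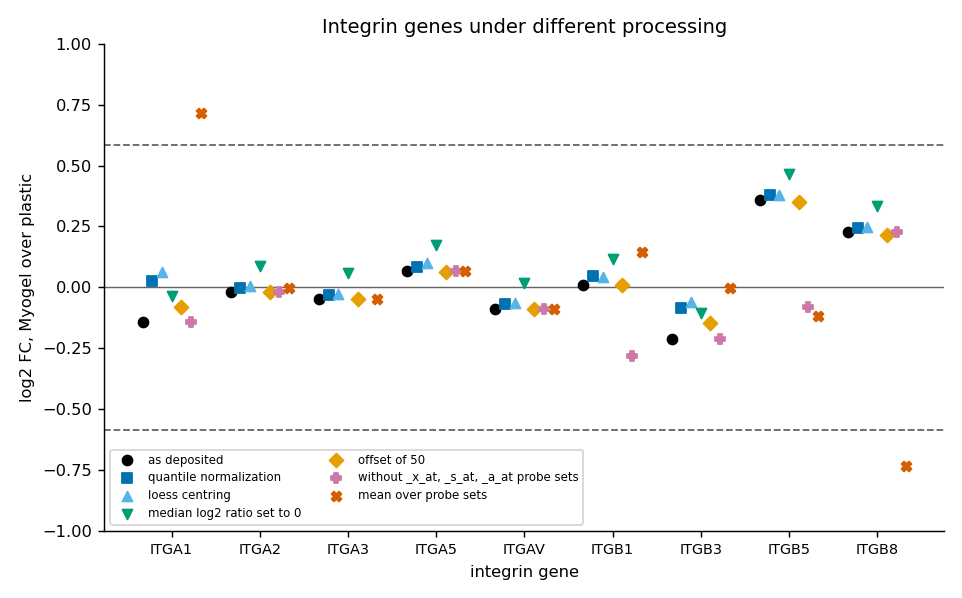
Log2 FC (Myogel over plastic, y axis) for the 9 integrin genes (x axis), each represented by its brightest probe set as deposited (black circles), after quantile normalization, loess centring, setting the median log2 ratio to 0 or adding an offset of 50, with suffixed probe sets (_x_at, _s_at, _a_at) left out (ITGA3 then has no value), and as the mean over its probe sets. Dashed lines mark FC 1.5. Under each rescaling or offset shown the genes stay between the dashed lines, and the mean over probe sets is beyond them for ITGA1 (0.72) and ITGB8 (-0.73). The ITGA1 mean includes the probe set at the floor on plastic, while its other 2 probe sets were lower on Myogel.

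Of the 16 other integrin subunits, each of which was measured, 3 passed FC 1.5 in the higher and 4 in the lower direction, against 9.71% and 17.5% of all genes. With quantile normalization, and likewise with loess centring, the counts became 4 and 2. Of the 16 subunits, 5 were at or above the median gene signal, and 1 of these passed, against 2.59% of all such genes. The rest were dimmer, so that the shares of all genes are not matched to this list in signal. ITGB2, the beta subunit of leukocyte integrins, was the 1 of the 7 subunits past FC 1.5 that reached the median gene signal. It had 238 on plastic and 149 on Myogel (1.60-fold lower, log2 FC -0.68, range -0.83 to 0.63). After quantile normalization, and likewise after loess centring, this log2 FC was -0.57, short of FC 1.5. The 2 dim probe sets of ITGB2 went in opposite directions. The other subunits past FC 1.5 were dim and are named after their values were seen. In their brightest probe sets ITGA2B, ITGA8 and ITGAL were higher, and ITGA4, ITGA9 and ITGAD were lower. Among them ITGAL, with 20.1 on plastic and 60.8 on Myogel, was outside the range for its signal. ITGA2B, ITGA8 and ITGAL each had a dimmer probe set that was lower on Myogel. ITGA4 had a dimmer probe set with a slightly higher value there, while its remaining ones were lower. These had 60.1 on plastic and 9.45 on Myogel, outside the range for its signal, and 45.3 and 9.41. ITGA9 had a dimmer probe set with 21.8 on plastic and 2.94 on Myogel, inside its range. The other dimmer probe sets of ITGA9 had slightly higher values on Myogel. ITGA6 and ITGB4, the laminin receptor of hemidesmosomes, had 8371 on plastic and 8005 on Myogel, and 1051 and 1073.

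Matrix ligands of these receptors and proteins of latent TGF-beta were measured for 23 of 26 listed genes, and 2 of these had higher and 2 had lower values on Myogel at FC 1.5, against 9.71% and 17.5% of all genes. They were the dim COL1A2 and TGFB3, higher, and SPP1 and NID1, lower, named after their values were seen, and each lay inside the range for its signal. The other 2 probe sets of COL1A2 were lower on Myogel. Of the 12 at or above the median gene signal 0 passed, against 2.59% of all such genes. The largest fold among them was that of FBN1, with 239 on plastic and 182 on Myogel (1.32-fold lower, log2 FC -0.40, range -0.78 to 0.60), while its dimmer probe sets went in opposite directions. THBS1, a matricellular protein that can activate latent TGF-beta, is named after its values were seen as the ligand whose brightest probe set was outside its range. It had 5566 on plastic and 6898 on Myogel (log2 FC 0.31, range -0.30 to 0.22), and was outside also after quantile normalization and loess centring. Its next 2 probe sets were lower on Myogel, with 3104 on plastic and 2705 on Myogel, and 882 and 746, inside their ranges. FN1, the ligand of the ITGA5 receptor, had 3060 on plastic and 3263 on Myogel. Over the list the median log2 FC was -0.11, against -0.07 over all genes. For the 12 ligands at or above the median gene signal it was 0.06, against -0.03 over all such genes.

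The list of activators, inactivators and adaptors of integrins had 30 of 32 genes measured, and at FC 1.5 Myogel had higher values for 0 and lower values for 3 of them, against 9.71% and 17.5% of all genes. ILK, the integrin-linked pseudokinase that binds the tails of beta subunits, had 848 on plastic and 548 on Myogel in its single probe set, a 1.55-fold lower value. Its log2 FC of -0.63 was outside the range for its signal, -0.58 to 0.57, with -0.61 after quantile normalization and -0.60 with loess centring. LIMS1 and APBB1IP, picked out once the values were known, were lower too, dim, and inside their ranges. Of the 26 adaptor genes at or above the median gene signal, ILK was the 1 with FC 1.5 or more, and of all such genes 2.59% passed. The 2 adaptors higher at FC 1.2 were ZYX, with 1352 on plastic and 1759 on Myogel, and TNS4, with 2137 and 2718, both inside their ranges and each lower on Myogel in its other probe set. At that threshold 6 were lower, among them TNS1, with 267 on plastic and 188 on Myogel. Of all genes 18.1% were higher and 30.8% lower at FC 1.2, and of those at or above the median gene signal 8.93% and 13.5%. TLN1, the talin of most cells, had 107 on plastic and 87.7 on Myogel in its brightest probe set, and 117 and 6.59, outside the range for its signal, in the next. TLN2 had 4342 on plastic and 4064 on Myogel. The focal adhesion kinase PTK2 (3065 on plastic, 2942 on Myogel), the actin linker VCL (5437 and 5893) and the kindlin FERMT1 (3400 and 3255), differed by at most 1.08-fold in their brightest probe sets. Dimmer probe sets of PTK2 and FERMT1 were up to 1.42-fold and 1.29-fold lower, inside the ranges for their signal. These adaptors, from ZYX on, were chosen after their values were seen. The list had a median log2 FC of -0.07, the same as over all genes.

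**Figure D4:**
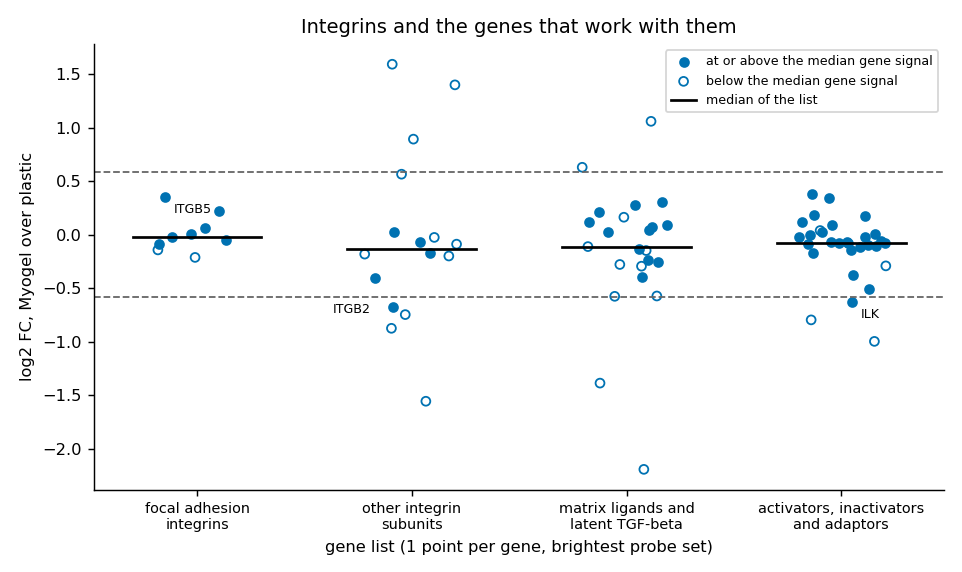
Log2 FC (Myogel over plastic, y axis) of the brightest probe set of each gene for the 9 focal adhesion integrins, 16 other integrin subunits, 23 matrix ligands and latent TGF-beta genes, and 30 activators, inactivators and adaptors (x axis, 1 point per gene). Filled points are genes at or above the median gene signal of 142 and open points dimmer genes, black bars are list medians, and dashed lines mark FC 1.5. The integrins lie between -0.21 and 0.36, and ITGB2 and ILK are the filled points below the lower dashed line.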

How the data were processed

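RNA of HSC-3 cells on plastic and on Myogel was measured with 1 array per surface, and samples were assigned by title. The deposited values are intensities that the authors obtained with dChip, whose version, model and scaling of the arrays are not stated in the labels or methods. Precision is limited by the number of arrays, and detection calls were not used.

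From these values the FC was computed for 54613 probe sets without further scaling and without a signal filter. The paper reports a far smaller share of genes past FC 1.5, and whether a further filter was used there is not stated. Symbols came from the platform annotation, updated by Entrez identifier through RefSeq (GRCh38.p14). Of the probe sets, 41091 had 1 symbol, 1801 had several and 11721 are unnamed here. A gene was read from its brightest probe set (mean of log2 values). Files name no genome build, so no coordinates are given. Named from the lists were up to 3 genes per direction that passed FC 1.5 and reached the median gene signal, or the gene with the largest difference, the 2 brightest markers, and every integrin probe set. With 2 arrays no genes could be named for a like profile.

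The members and lists were chosen with earlier results of these data known. Alternatives were quantile normalization, loess centring (span 0.3), a median log2 ratio of 0, offsets of 16 and 50, FC 1.2 and FC 2, a difference of 100 linear units, a filter at the median signal, leaving out _x_at, _s_at and _a_at probe sets, and the mean over or any of the probe sets of a gene. Python 3.11.15 was used with pandas 2.3.3, numpy 2.4.6, matplotlib 3.10.9 and statsmodels 0.14.6, and the functions were tested on simulated data.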

Additional observations from a re-analysis of the deposited data

How the results depend on the processing

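The count of integrin genes with FC 1.5 or more stayed at 0 higher and 0 lower under each rescaling, offset and filter, at FC 2, and when probe sets ending in _x_at, _s_at or _a_at (suffixed probe sets) were left out. The count was 1 higher (ITGB5) at FC 1.2, against 18.1% of all genes higher and 30.8% lower. It was 1 higher (ITGA1) and 1 lower (ITGB8) when probe sets were averaged, against 11.6% and 21.4% of all genes. The ITGA1 mean includes a probe set at the floor on plastic. When any probe set could count, 3 were higher and 4 lower, against 22.1% and 36.2% of all genes. The median log2 FC of the integrins lay between -0.08 and 0.09 and changed sign with the scaling. Of 62 values of single integrin genes under alternatives, 55 moved by less than the SD of the 1000 probe sets nearest in signal, and 11 had the other sign.

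For integrin probe sets, 5 higher and 7 lower became 8 and 11 at FC 1.2, 0 and 0 with an offset of 50 or with a difference of 100 linear units, 0 and 3 when only probe sets whose higher value reached the median signal were kept (20 of 31, a wider rule than a mean signal at that level), and 3 and 3 without suffixed probe sets. With an offset of 16, 1 was higher and 6 were lower. The dependence on offset and filter follows from how dim these probe sets were.

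For the other integrin subunits, 3 higher and 4 lower became 4 and 2 after quantile normalization or loess centring, 1 and 1 with an offset of 50, 0 and 0 with the difference of 100 units, 2 and 1 at FC 2, and 1 and 6 when probe sets were averaged. For the ligands, 2 and 2 became 0 and 0 with an offset of 50 or the difference of 100 units, 4 and 7 at FC 1.2, 1 and 2 at FC 2, 4 and 3 without suffixed probe sets, and 2 and 8 when probe sets were averaged. For the adaptors, 0 and 3 became 2 and 6 at FC 1.2, 1 and 5 without suffixed probe sets, 1 and 7 when probe sets were averaged, 0 and 1 with an offset of 50 or the difference of 100 units, and 0 and 0 at FC 2. The cause of these shifts was not tested, and neither was that of the shifts in the integrin probe sets. Over all genes, 1921 were higher and 3469 lower as deposited, 2609 and 2559 after quantile normalization, and 2634 and 2542 after loess centring. The shares of all genes higher and lower were 1.81% and 2.89% with an offset of 50, and 0.445% and 0.627% with the difference of 100 units. They were 18.1% and 30.8% at FC 1.2, and 6.36% and 10.7% at FC 2. Without suffixed probe sets they were 11.2% and 20.7%, and with probe sets averaged 11.6% and 21.4%. No paired analysis was possible because each surface has 1 array.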
